A study of Saccharomyces cerevisiae with 18 samples.

Results

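The 9 genes described here make the main phospholipids of budding yeast, make inositol, or control both. They are the phosphatidylserine synthase gene *CHO1* (YER026C), the phosphatidylserine decarboxylase genes *PSD1* (YNL169C) and *PSD2* (YGR170W), the methyltransferase genes *CHO2* (YGR157W) and *OPI3* (YJR073C), the inositol-3-phosphate synthase gene *INO1* (YJL153C), and the regulator genes *INO2* (YDR123C), *INO4* (YOL108C) and *OPI1* (YHL020C). A gene was taken where the annotation gave a probe set its name and no other. Each of the 9 had 1 such probe set, out of 6504 probe sets for 5656 genes. This rule used gene names only, but the genes were listed with earlier results of these data known.

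Expression was measured with Affymetrix Yeast Genome S98 arrays in 6 haploid strains, wild type and 5 with altered base excision repair. In this pathway the glycosylase Mag removes damaged bases and the endonuclease Apn1 cuts the abasic site that is left. Each strain was grown as a biological triplicate, 1 array per culture, in galactose medium without uracil to mid-log phase, and no DNA damaging agent was added. The study asked how yeast transcription changes when abasic sites or strand breaks build up, and compared each strain with wild type.

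All strains derive from BGY111, a mating type **a** strain that uses galactose and carries mutations in *HIS3*, *LEU2*, *URA3*, *TRP1* and *CAN1*. WT/pMAG carried the plasmid pYES-MAG, from which galactose induces Mag. Δapn1 carried the allele *apn1-1::HIS3* and the empty vector pYES. Δapn1/pMAG carried the same allele with pYES-MAG, Δapn1/pAPN1 the same allele with the plasmid pYepAPN1-2A and pYES, and Δapn1/pMAG/pAPN1 the same allele with both pYepAPN1-2A and pYES-MAG. Wild type carried pYES alone, so that pYES or pYES-MAG was present in every strain. Each strain is 1 genotype in 1 background, and the medium named for the arrays selects for the pYES plasmids, not for pYepAPN1-2A. The sources used here do not give the part of *APN1* that *HIS3* replaced.

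In yeast, phosphatidylserine is made from CDP-diacylglycerol and serine, is decarboxylated to phosphatidylethanolamine, and is then methylated to phosphatidylcholine. Many genes of this route carry an inositol-sensitive promoter element that is bound by the activator pair Ino2 and Ino4. The repressor Opi1 is held at the endoplasmic reticulum by phosphatidic acid and enters the nucleus, where it acts on the Ino2 and Ino4 pair, when inositol is plentiful.

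The values are log2 signals from robust multi-array average (RMA) processing, and a difference of 1 is a change of 2-fold. Array medians were between 1.63 and 1.72. *MAG1*, the gene on pYES-MAG, had signals of 6.14, 1.48 and 6.91 in WT/pMAG, 7.17, 2.88 and 1.82 in Δapn1/pMAG and 3.80, 2.83 and 1.82 in Δapn1/pMAG/pAPN1, against 0.89 to 1.41 on the 9 arrays without the plasmid. All 9 arrays with pMAG were therefore above all without it, and replicate 2 of WT/pMAG only just. *APN1* had signals of 7.27 to 7.96 in Δapn1/pAPN1 and 4.57 to 7.48 in Δapn1/pMAG/pAPN1, with 2.81 to 3.15 in Δapn1 and 3.64 to 4.38 in Δapn1/pMAG, against 1.14 to 1.88 in wild type. The signal was thus not lower but higher on every array of Δapn1 and Δapn1/pMAG than on those of wild type. This probe set does not check the deletion. Among mating type genes the **a**-factor genes *MFA1* and *MFA2* had means of 8.02 and 9.41 over the 18 arrays, and the alpha-factor genes *MF(ALPHA)1* and *MF(ALPHA)2* means of 1.76 and 1.63. Of 5 mating type **a** genes, 2 were lower in WT/pMAG and 1 in Δapn1/pMAG/pAPN1 at the thresholds given below, where 3.86% and 1.58% of all probe sets were lower, and of 4 alpha genes 0 passed in any strain. By sign all 5 **a** genes were lower in WT/pMAG, Δapn1 and Δapn1/pMAG, and 4 of the 5 in each strain with pAPN1. Of 5 strain and plasmid genes (*APN1*, *MAG1*, *HIS3*, *LEU2* and *URA3*), 2 were higher in WT/pMAG, 2 in Δapn1 and 3 in each of the other strains against wild type. In Δapn1/pMAG and in Δapn1/pMAG/pAPN1, 1 was lower. Of all probe sets, 6% passed in either direction in WT/pMAG, 0.431% in Δapn1, 3.38% in Δapn1/pMAG, 3.31% in Δapn1/pAPN1 and 3.4% in Δapn1/pMAG/pAPN1. These genes were picked because the constructs bear on them, so calls among them are no independent result.

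The arrays fell into sets by their signal from 76 structural RNA probe sets (ribosomal, small nucleolar and small nuclear RNA). These means were 2.10 to 2.55 on 7 arrays and 1.69 to 1.86 on 11, and the cut was drawn from these same arrays. The high set held replicates 1 and 3 of WT/pMAG, 2 and 3 of Δapn1, 1 of Δapn1/pMAG, and 2 and 3 of wild type, so both strains with pAPN1 lay wholly in the low set. The arrays with the highest *MAG1* signals (6.14, 6.91 and 7.17) were also in the high set. Replicate 1 of Δapn1/pMAG stood apart from the rest, with an *ACT1* 5′ minus 3′ probe set difference of −7.78, where the other arrays had −1.82 to −0.65.

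**Figure D1:**
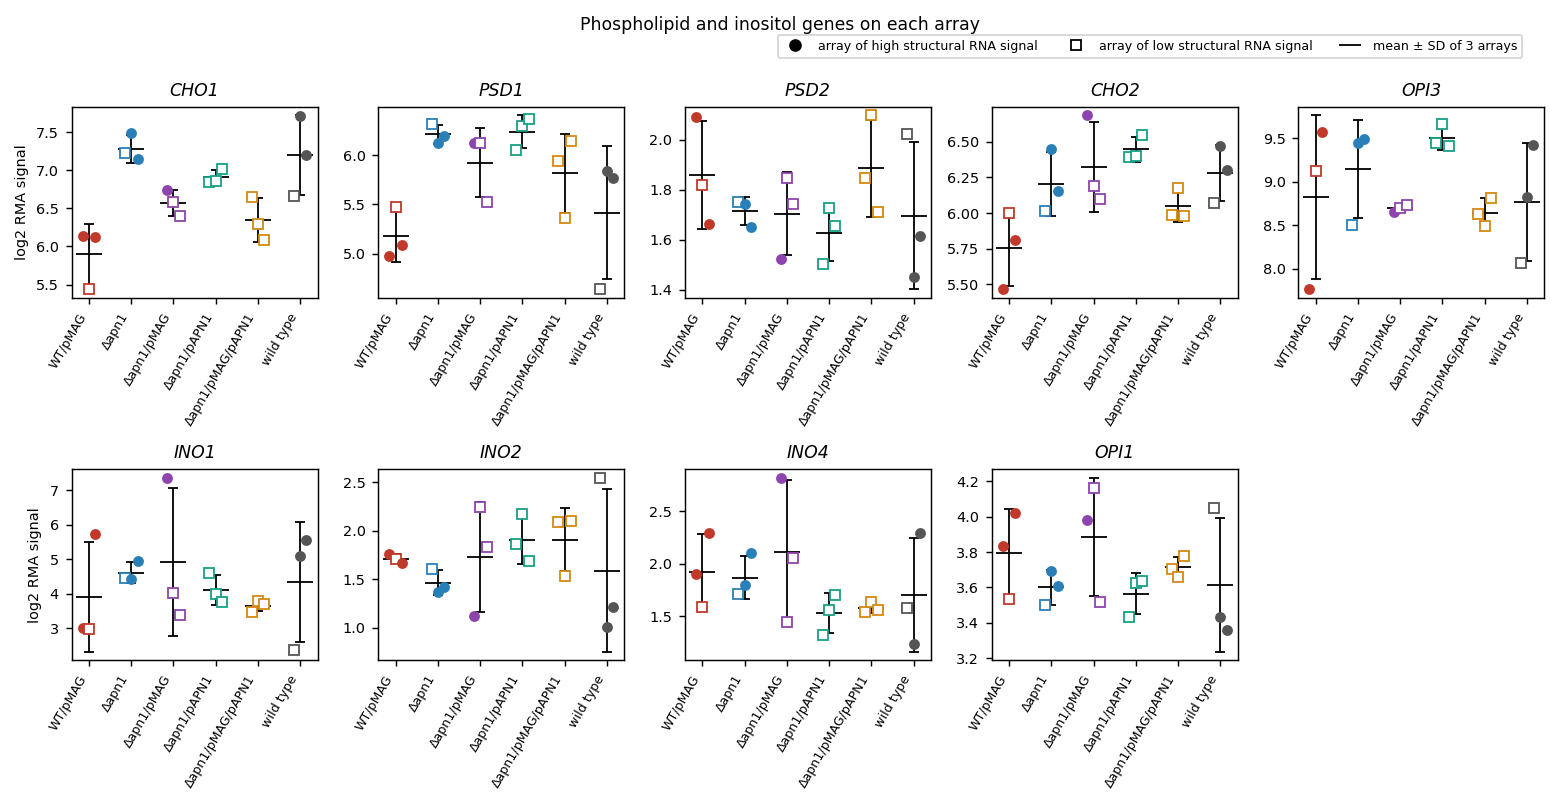
Log2 RMA signal (vertical axes, each with its own range) of the 9 genes in the 6 strains (horizontal axes), with 1 symbol per array, filled circles for arrays of high structural RNA signal and open squares for arrays of low signal, and bars for mean ± SD of 3 arrays. The 3 WT/pMAG arrays were the lowest for *CHO1*, between 5.44 and 6.14, except that 1 array of Δapn1/pMAG/pAPN1 lay at 6.09.

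Against wild type, 2 of the 9 genes passed the methods' thresholds, an unadjusted p under 0.05 with a change of at least 1.5-fold. *CHO1* was lower in the 3 strains with pMAG, and *PSD1* was higher in Δapn1 and Δapn1/pAPN1. That made 1 gene of 9 in each of the 5 comparisons, where 6% of all probe sets passed in WT/pMAG, 0.431% in Δapn1, 3.38% in Δapn1/pMAG, 3.31% in Δapn1/pAPN1 and 3.4% in Δapn1/pMAG/pAPN1. Counted in the direction of the called gene alone, 3.86%, 0.231%, 1.35%, 2.51% and 1.58% of probe sets passed in the same strain order. In limma, 6 of the 45 pairs of gene and strain had an unadjusted p under 0.05, against a background of 10.5%, 1.29%, 6.93%, 6.78% and 7.52% of probe sets in the same strain order. None of the 45 had a Benjamini-Hochberg adjusted p under 0.05 in limma, where the background was 0.0923%, 0%, 0.108%, 0.0154% and 0.0154%. The methods' test, run with each probe set's own variance, also gave 6 pairs before adjustment and 0 after it. The 5 comparisons share the 3 wild type arrays and are not independent of each other.

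The median log2 difference of the 9 genes was 0.05 in WT/pMAG, 0.09 in Δapn1, 0.14 in Δapn1/pMAG, −0.05 in Δapn1/pAPN1 and −0.12 in Δapn1/pMAG/pAPN1. Over all 6504 probe sets it was 0.01, 0.00, 0.02, 0.03 and 0.03. By sign, 5 of the 9 were higher than wild type in WT/pMAG, 6 in Δapn1, 7 in Δapn1/pMAG and 4 in each strain with pAPN1.

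**Figure D2:**
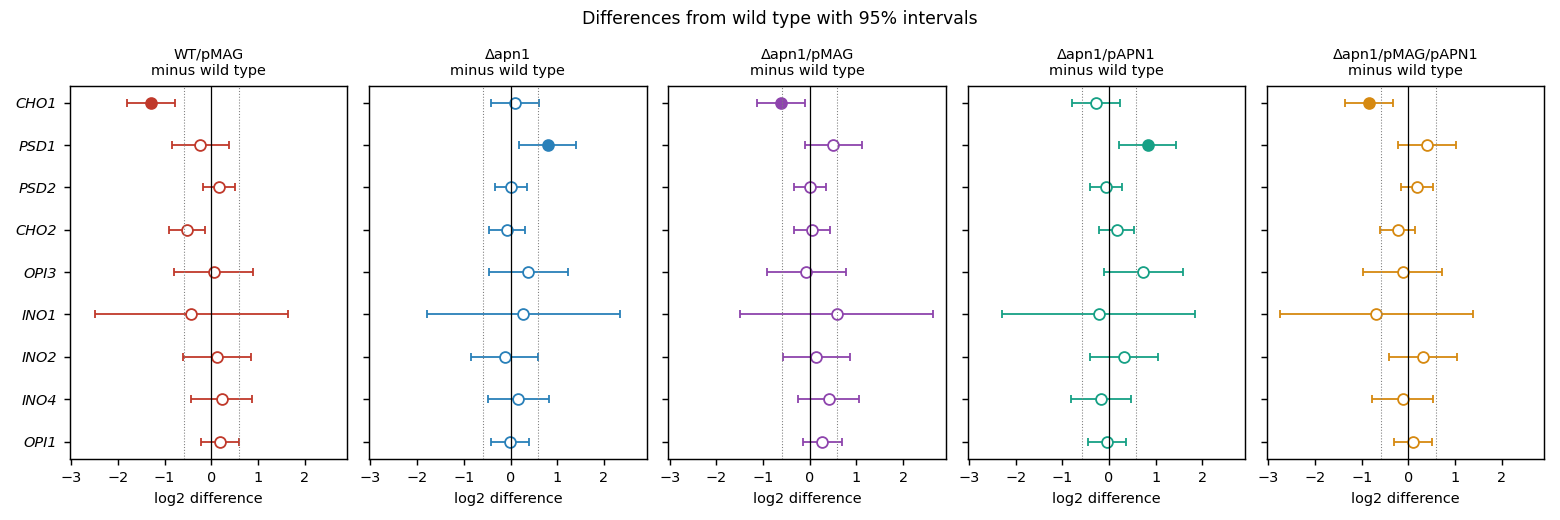
Log2 difference from wild type (horizontal axes) of the 9 genes (rows) in the 5 other strains (panels), as limma's estimate with its 95% interval, n = 3 arrays per strain. Filled circles mark the 5 differences past an unadjusted p of 0.05 and 1.5-fold, which is drawn as dotted lines, and *INO1* has the widest intervals in every panel.

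*CHO1* encodes the enzyme that makes phosphatidylserine, and it was the 1 gene of the 9 with an adjusted p under 0.05 in any of the planned comparisons. Its signals were 6.14, 5.44 and 6.12 in WT/pMAG, against 6.66, 7.71 and 7.20 in wild type. They were 6.74, 6.58 and 6.40 in Δapn1/pMAG, against 7.22, 7.49 and 7.14 in Δapn1. They were 6.65, 6.29 and 6.09 in Δapn1/pMAG/pAPN1, against 6.85, 6.86 and 7.02 in Δapn1/pAPN1. In each of the 3 backgrounds every array with pMAG was below every array without it. In Δapn1 alone, 5.2% of probe sets were lower in this way. Of all probe sets, 15 (0.231%) were lower without overlap in all 3 backgrounds, and *CHO1* was the 1 gene of the 9 among them.

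The strain means of *CHO1* were 5.90 ± 0.40 in WT/pMAG, 7.28 ± 0.18 in Δapn1, 6.57 ± 0.17 in Δapn1/pMAG, 6.91 ± 0.09 in Δapn1/pAPN1, 6.34 ± 0.29 in Δapn1/pMAG/pAPN1 and 7.19 ± 0.52 in wild type (SD, n = 3 each). The mean of the 3 pMAG differences, which share no array, was −0.86 (SE 0.14, 95% interval −1.15 to −0.56, limma adjusted p = 0.00534), so that *CHO1* fell to a signal 1.81 times lower with pMAG. It ranked 25 by p among the 6504 probe sets, of which 83 (1.28%) passed. Whichever single array was left out, the difference stayed between −0.94 and −0.77 with an adjusted p under 0.05. Without replicate 2 of WT/pMAG, the array of low *MAG1* signal, it was −0.78 with an adjusted p of 0.00802. That array, with a *MAG1* signal of 1.48, had the lowest *CHO1* signal of all 18 (5.44). Replicate 3 had the lowest *MAG1* signal of its strain in Δapn1/pMAG and in Δapn1/pMAG/pAPN1, and also the lowest *CHO1* signal (6.40 and 6.09). Within each strain with pMAG, *CHO1* was thus lowest on the array where *MAG1* was lowest, and the cause was not tested. In bulk cultures a change in some cells and a smaller change in all of them cannot be told apart.

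The single differences were −1.29 in wild type (SE 0.24, 95% interval −1.81 to −0.78), −0.71 in Δapn1 (SE 0.24, −1.23 to −0.19) and −0.56 in Δapn1/pAPN1 (SE 0.24, −1.08 to −0.05). The first is a signal 2.45 times lower, and its limma adjusted p of 0.0562 was just above the threshold. The adjusted p for the other backgrounds was 0.424 and 0.896. The pMAG difference was 0.59 less negative in Δapn1 than in wild type, with an interval of −0.15 to 1.32 and an adjusted p of 0.998, so a different size in the backgrounds was not shown. Adding pAPN1 to the null moved it by 0.14, with an interval of −0.59 to 0.88 and an adjusted p of 0.998. None of the 9 genes had even an unadjusted p under 0.05 in this last limma contrast, where 3.12% of probe sets did and none passed after adjustment.

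**Figure D3:**
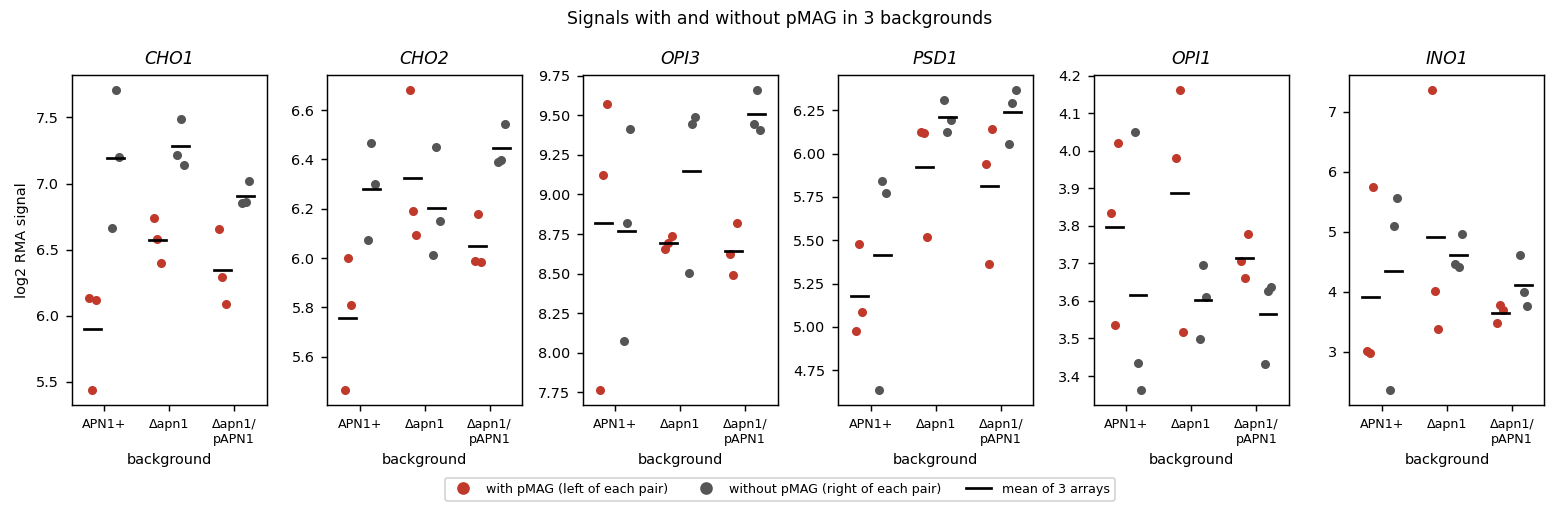
Log2 RMA signal (vertical axes, each with its own range) of 6 genes with pMAG (red, left of each pair) and without it (grey, right) in the strain with native *APN1*, Δapn1 and Δapn1/pAPN1, with 1 point per array and a line at the mean of 3 arrays. For *CHO1* the points do not overlap in any background, while for *INO1* they overlap in all 3.

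Against wild type itself, the *CHO1* difference was −0.62 in Δapn1/pMAG (SE 0.24, adjusted p = 0.633) and −0.85 in Δapn1/pMAG/pAPN1 (SE 0.24, adjusted p = 0.354). Arrays of the first of these overlapped those of wild type, and all 3 of the second were below them, as were 6.7% of probe sets. The difference was 0.09 in Δapn1 and −0.28 in Δapn1/pAPN1, where the arrays overlapped with wild type. The −0.62 in Δapn1/pMAG lost the methods' thresholds without replicate 2 of wild type (−0.36) and without replicate 3 of Δapn1/pMAG (−0.53).

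*CHO1* was also 0.46 higher on the arrays of high structural RNA signal than on the low ones with strain in the fit (SE 0.14, adjusted p = 0.0612). Within the high set, WT/pMAG was 1.33 below wild type with 2 arrays of each (difference −1.33), and within the low set, with 1 array of each, the difference was −1.23. Δapn1/pMAG differed from Δapn1 by −0.58 in the high set and −0.73 in the low set, and the −0.56 between both pAPN1 strains lay wholly in the low set. Against the single wild type array of the low set, Δapn1/pMAG was at −0.17 and Δapn1/pMAG/pAPN1 at −0.32. On the 11 low arrays alone the mean pMAG difference was −0.84 with an adjusted p of 0.0816.

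*PSD1* encodes the phosphatidylserine decarboxylase of the mitochondrial inner membrane, and its signal passed the methods' thresholds upward in both null strains without pMAG. Its signals were 6.31, 6.12 and 6.19 in Δapn1 and 6.06, 6.29 and 6.37 in Δapn1/pAPN1, against 4.63, 5.84 and 5.77 in wild type. All 6 arrays of these strains were above the 3 of wild type, where replicate 1 was far below the others. With pMAG they were 6.13, 6.12 and 5.52 in Δapn1/pMAG and 5.94, 5.36 and 6.14 in Δapn1/pMAG/pAPN1, against 4.98, 5.48 and 5.09 in WT/pMAG. Here the 3 arrays of Δapn1/pMAG were above all 3 of WT/pMAG, and 1 array of Δapn1/pMAG/pAPN1 was not. The share of all probe sets separate from WT/pMAG in this way was not counted. Against wild type these strains overlapped, with differences of 0.51 in Δapn1/pMAG and 0.40 in Δapn1/pMAG/pAPN1 that did not pass.

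The *PSD1* mean was 6.21 ± 0.09 in Δapn1 and 6.24 ± 0.16 in Δapn1/pAPN1, against 5.42 ± 0.68 in wild type (SD, n = 3 each). The difference was 0.79 in Δapn1 (SE 0.29, limma adjusted p = 1.00) and 0.82 in Δapn1/pAPN1 (SE 0.29, limma adjusted p = 0.600). Arrays wholly above wild type were found for 2.98% of probe sets in Δapn1 and 12% in Δapn1/pAPN1. By rank of p, *PSD1* was number 14 of 6504 in Δapn1, where 28 probe sets passed the methods' thresholds. Both calls rested on replicate 1 of wild type, since without it the differences were 0.40 and 0.43 and neither passed.

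The mean effect of the deletion on *PSD1*, over the pairs Δapn1 with wild type and Δapn1/pMAG with WT/pMAG, was 0.77 (SE 0.20, 95% interval 0.34 to 1.20). It ranked 7 of 6504, and 0.492% of probe sets passed the methods' thresholds upward in this contrast, but its limma adjusted p was 0.998. The mean of the 4 null strains minus the mean of both strains with native *APN1*, a contrast added after the values had been seen, was 0.75 (SE 0.18, adjusted p = 0.298). *PSD1* was the 1 gene of the 9 that was above wild type in all 4 null strains by sign, as were 20.9% of all probe sets. On arrays of high structural RNA signal, 3 of 3 null arrays (6.12 to 6.19) were above all 4 arrays with native *APN1* (4.98 to 5.84). On low ones 8 of 9 null arrays (5.36 to 6.37) were above both with native *APN1* (4.63 and 5.48). These arrays come from different strains and are not replicates of 1 condition. The counts were made for *PSD1* alone, so no share over all probe sets stands beside them. In the high set alone the difference between Δapn1 and wild type was 0.35, with 2 arrays of each.

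*PSD2*, the decarboxylase of the Golgi and endosomes, had a mean signal of 1.75 over all arrays, close to the array medians. Its 18 values were between 1.45 and 2.10, and its differences from wild type between −0.07 and 0.19 with overlapping arrays in every strain. The deposited table has no detection calls, so whether this gene was above background could not be told.

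*CHO2* encodes the methyltransferase of the first step from phosphatidylethanolamine to phosphatidylcholine. Its signals were 5.46, 6.0 and 5.81 in WT/pMAG, against 6.07, 6.47 and 6.30 in wild type, with all 3 arrays below. They were 5.99, 6.18 and 5.98 in Δapn1/pMAG/pAPN1, against 6.39, 6.40 and 6.55 in Δapn1/pAPN1, again without overlap. In the null without pAPN1 the arrays overlapped, at 6.68, 6.19 and 6.10 in Δapn1/pMAG, against 6.01, 6.45 and 6.15 in Δapn1. Lower without overlap in at least 2 backgrounds were 2.24% of probe sets, with *CHO1* and *CHO2* among them.

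The *CHO2* difference was −0.52 in WT/pMAG against wild type (SE 0.18, limma adjusted p = 0.314), which is under 1.5-fold. Arrays wholly below wild type in WT/pMAG were found for 7.38% of probe sets. The mean pMAG difference was −0.27 (SE 0.10, adjusted p = 0.220), with array weights −0.37 (adjusted p = 0.0302), and on the 11 arrays of low structural RNA signal alone −0.11 (adjusted p = 0.707). WT/pMAG differed from wild type by −0.75 in the high set, with 2 arrays of each, and by −0.07 in the low set, with 1 array of each. The pMAG difference in Δapn1 minus that in wild type was 0.64 (SE 0.25, unadjusted p = 0.022, adjusted p = 0.998), and no probe set passed the adjusted test of this interaction (3.2% had an unadjusted p under 0.05). Replicate 1 of Δapn1/pMAG, the array that stood apart by its *ACT1* signals, gave the highest *CHO2* value of the 18.

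*OPI3*, the methyltransferase of the last steps to phosphatidylcholine, varied more between arrays of a strain. It had signals of 7.76, 9.12 and 9.57 in WT/pMAG, against 8.07, 8.82 and 9.42 in wild type, and the arrays overlapped over most of their range. In the null with pAPN1 they were separate, at 8.63, 8.49 and 8.82 in Δapn1/pMAG/pAPN1, against 9.45, 9.66 and 9.41 in Δapn1/pAPN1, a difference of −0.86 (SE 0.40, limma adjusted p = 0.897). In this background the 3 genes *CHO1*, *CHO2* and *OPI3*, which act in 1 route, were lower without overlap with pMAG, where 7.24% of all probe sets were lower in that way. The values of *OPI3* in Δapn1/pMAG lay together at 8.66, 8.70 and 8.74, against 8.50, 9.45 and 9.49 in Δapn1, and overlapped. The mean pMAG difference of −0.42 had an interval of −0.91 to 0.07 and an adjusted p of 0.406.

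Taken by sign, *CHO1* and *PSD1* were lower with pMAG in all 3 backgrounds, as were 19.6% of all probe sets. The *PSD1* difference between WT/pMAG and wild type was −0.24 over all arrays, −0.78 in the high set with 2 arrays of each and 0.84 in the low set with 1 of each, so that its sign turned with the array set. Without replicate 1 of wild type it was −0.63. The median of the 9 mean pMAG differences was −0.20, against 0.00 over all probe sets. *CHO1* and *CHO2* had an unadjusted p under 0.05 for this mean, where 15.3% of all probe sets did, and *CHO1* alone passed after adjustment.

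*INO1* encodes the enzyme of inositol synthesis and is the classical target of the Ino2 and Ino4 pair. It was the most variable of the 9 genes between arrays of a strain, with a residual SD of 1.32, above that of 99.5% of probe sets. Its signals were 3.01, 2.98 and 5.74 in WT/pMAG, 4.46, 4.42 and 4.96 in Δapn1, and 7.37, 4.01 and 3.38 in Δapn1/pMAG. They were 4.61, 3.99 and 3.76 in Δapn1/pAPN1 and 3.48, 3.78 and 3.69 in Δapn1/pMAG/pAPN1, against 2.36, 5.10 and 5.57 in wild type. Every strain overlapped wild type, and the wild type arrays alone spanned 3.20. The differences from wild type were between −0.69 and 0.58 with an SE of 0.97, and their intervals reached from −2.76 to 2.64, so that large changes in either direction could not be told from none.

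The spread of *INO1* moved with the sets of arrays. It had 3.01 to 7.37 with a median of 5.10 on the 7 arrays of high structural RNA signal, against 2.36 to 4.61 with a median of 3.76 on the 11 of low signal. With strain in the fit the difference was 2.06 (SE 0.51, limma adjusted p = 0.0288), and *INO1* was the 1 gene of the 9 among the 510 probe sets (7.84%) that passed. The call was lost without replicate 1 of Δapn1/pMAG (1.53, adjusted p = 0.156), the array that stood apart by its *ACT1* signals, without its replicate 2 (2.02, adjusted p = 0.0513), and without replicate 1 (1.76, adjusted p = 0.0898) or replicate 2 (2.05, adjusted p = 0.0501) of wild type. Within the low set, the single wild type array (2.36) was below all 10 others, and Δapn1 was 2.10 above it with 1 array. Within the high set Δapn1 was at −0.65 against wild type with 2 arrays of each, the opposite sign. The strain difference and the array set could be compared only over these few arrays.

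*INO2* and *INO4* encode the activator pair, and their mean signals of 1.72 and 1.79 were, like that of *PSD2*, close to the array medians. *INO2* had 1.76, 1.71 and 1.67 in WT/pMAG, 1.61, 1.37 and 1.42 in Δapn1, 1.12, 2.24 and 1.83 in Δapn1/pMAG, 1.86, 2.18 and 1.69 in Δapn1/pAPN1 and 2.10, 1.53 and 2.10 in Δapn1/pMAG/pAPN1, against 2.55, 1.00 and 1.22 in wild type. The wild type arrays held both the highest and the lowest value of the gene. *INO2* was 0.64 lower on high arrays than on low ones (difference −0.64, SE 0.20, adjusted p = 0.0603), and *INO4* 0.50 higher (SE 0.19, adjusted p = 0.117). *INO4* lay between 1.24 and 2.82, with its highest value on replicate 1 of Δapn1/pMAG, and no strain was separate from wild type for either gene.

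*OPI1*, the repressor gene, had signals of 3.83, 3.54 and 4.02 in WT/pMAG, 3.50, 3.70 and 3.61 in Δapn1, 3.98, 4.16 and 3.52 in Δapn1/pMAG, 3.43, 3.63 and 3.64 in Δapn1/pAPN1 and 3.71, 3.66 and 3.78 in Δapn1/pMAG/pAPN1, against 4.05, 3.44 and 3.36 in wild type. All strains overlapped wild type. With pMAG in the null with pAPN1 its 3 arrays were just above those without pMAG, as were 6.84% of probe sets, by 0.15. The mean pMAG difference was 0.21 with an interval of −0.03 to 0.44 and a limma adjusted p of 0.401.

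**Figure D4:**
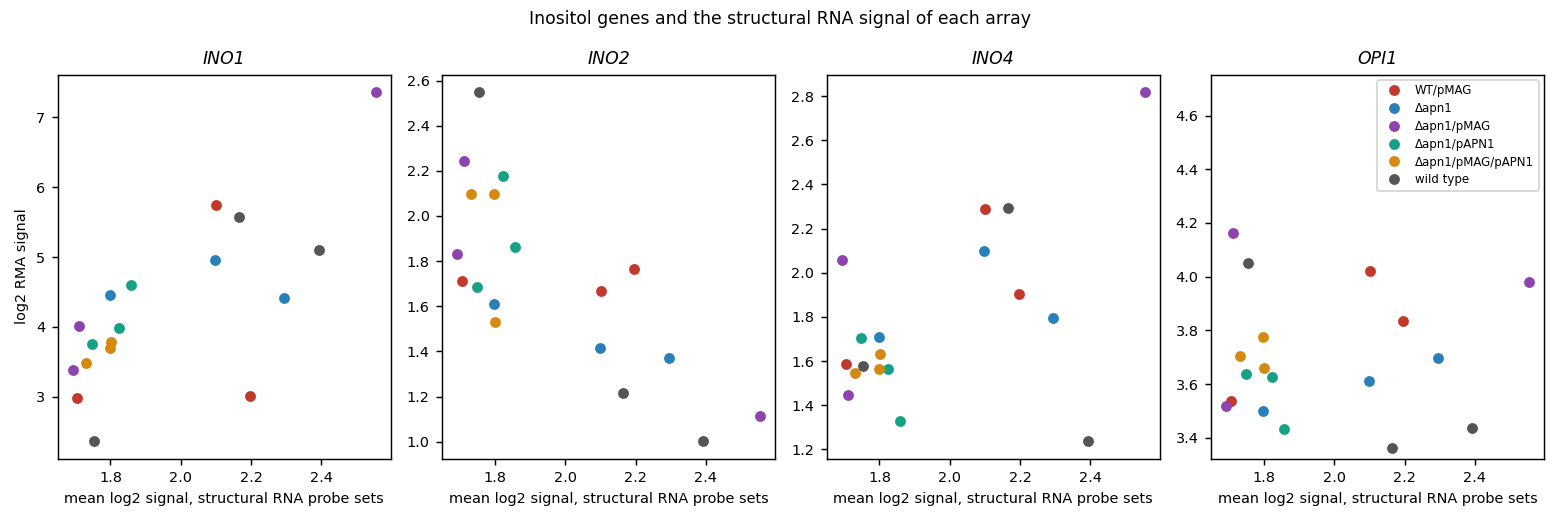
Log2 RMA signal (vertical axes, each with its own range) of *INO1*, *INO2*, *INO4* and *OPI1* on each of the 18 arrays against the mean log2 signal of the array's structural RNA probe sets (horizontal axes), coloured by strain. *INO1* reached 7.37 on the array with the highest structural RNA signal, and the 11 arrays of low signal had at most 4.61.

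Across all 6 strains at once, limma's F test gave *CHO1* an unadjusted p of 2.99e-04 and an adjusted p of 0.0607. *PSD1* and *CHO2* followed with unadjusted p of 0.0115 and 0.021 and adjusted p of 0.351 and 0.420. None of the 9 genes passed after adjustment, where 26 probe sets (0.4%) did, and 3 did before it, where 9.56% did. Adding pAPN1 to the null, as the mean of the pairs with and without pMAG, gave differences between −0.88 for *INO1* and 0.31 for *INO2*. None had an unadjusted p under 0.05 in limma, where 5.21% of probe sets had one and 0.0615% an adjusted p under 0.05. Both strains with pAPN1 lay wholly in the low structural RNA set, while Δapn1 and Δapn1/pMAG had arrays in both sets. High minus low arrays, with strain in the fit, differed by 2.06 for *INO1* and −0.64 for *INO2*. The effect of pAPN1 was therefore not separated from the array set in this contrast.

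Genes that feed, use or share this route were taken from 11 lists of 71 genes, all with a probe set. At the methods' thresholds 2 were higher and 8 lower in WT/pMAG, 0 in Δapn1, 2 higher and 2 lower in Δapn1/pMAG, 3 higher in Δapn1/pAPN1, and 1 higher and 2 lower in Δapn1/pMAG/pAPN1. Over all probe sets, 6%, 0.431%, 3.38%, 3.31% and 3.4% passed in either direction in the same strain order. None passed the adjusted limma test against wild type. The lists for cardiolipin (5 genes), for phosphoinositide kinases and phosphatases (11) and for other regulators of the *INO* genes (9) had no gene past the thresholds in any strain.

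In WT/pMAG the supply of phosphatidic acid and CDP-diacylglycerol had 2 of 10 genes lower, where 3.86% of all probe sets were lower. *CDS1*, the CDP-diacylglycerol synthase gene, was at 3.58, 3.63 and 3.59 in WT/pMAG, against 4.50, 4.21 and 4.20 in wild type, a difference of −0.70 (SE 0.30). *GPT2*, an acyltransferase gene for the first step of lipid synthesis, had a difference of −0.91 (SE 0.33). In the other branch, which makes phosphatidylcholine from imported choline, the choline transporter gene *HNM1* differed by −0.97 (SE 0.45). The ethanolamine phosphotransferase gene *EPT1* differed by −0.70 (SE 0.31). Another probe set of *EPT1*, with a mean signal of 1.38 over all arrays, differed by −0.22. *INM1*, an inositol monophosphatase gene, was the opposite, with 3.08, 2.51 and 3.96 in WT/pMAG, against 2.03, 1.91 and 2.06 in wild type, a difference of 1.18 (SE 0.26, limma adjusted p = 0.131).

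Also lower in WT/pMAG were the phospholipase gene *NTE1* (−0.59), the transfer protein gene *SFH5* (−1.04), and, of the genes that turn over the methyl donor, *SAH1* (−0.62) and the adenosine kinase gene *ADO1*. *ADO1* had 3.97, 5.65 and 9.02 in WT/pMAG, against 8.65, 9.37 and 9.45 in wild type. Replicate 3 of WT/pMAG was within the wild type range, and the difference of −2.95 came from the other arrays of the strain.

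*PDR16*, which encodes a phosphatidylinositol transfer protein, was the 1 gene of the 71 with an adjusted p under 0.05 for the mean pMAG effect. Its signals were 5.88, 6.24 and 5.86 in WT/pMAG, against 5.34, 4.77 and 4.85 in wild type. They were 5.95, 6.04 and 6.39 in Δapn1/pMAG, against 5.54, 4.35 and 4.90 in Δapn1, and 5.72, 5.77 and 6.30 in Δapn1/pMAG/pAPN1, against 5.55, 5.20 and 5.63 in Δapn1/pAPN1. *PDR16* rose by 0.89 on average with pMAG (SE 0.15, limma adjusted p = 0.00748), and in each background all arrays with pMAG were above all without it, as were those of 33 probe sets (0.507%). *INM1* had a mean difference of 0.59 and an adjusted p of 0.0676, just above the threshold.

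In Δapn1/pMAG the phospholipase gene *PLB3* (1.01) and *PDR16* (1.14) were higher, and the fatty acid synthase genes *FAS1* (−1.66) and *FAS2* (−1.42) lower. For both *FAS1* and *FAS2* the difference came from replicate 1, at 3.55 and 4.42, where the other arrays of the strain had 7.40 to 7.80. That is the array whose *ACT1* signals stood apart, and the 7 other probe sets of each gene gave smaller differences from wild type, −0.86 to 0.12 for *FAS1* (4 of 7 negative) and −1.01 to 0.32 for *FAS2* (6 of 7 negative). The choline kinase gene *CKI1* (0.76), the phosphocholine transferase gene *CPT1* (0.59) and the methyl donor synthase gene *SAM2* (0.83) were higher in Δapn1/pAPN1. The inositol transporter gene *ITR1* was lower in Δapn1/pMAG/pAPN1, at 8.36, 7.49 and 8.09, against 8.54, 9.10 and 8.89 in wild type (−0.87, SE 0.28, limma adjusted p = 0.425), as was *SFH5* (−0.95), and *PDR16* was higher (0.94).

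The genes whose 6 strain means followed those of *CHO1* most closely were *IMG2*, *RPS7A*, *MNR2*, *IAI11* and *EMC6*, with Pearson correlations of 0.999, 0.997, 0.994, 0.990 and 0.988 over 6 strains. They were picked as the highest among all genes. The strain means of *IMG2* were 0.92 to 1.15, below the array medians, and those of *IAI11* 1.37 to 1.79, close to them. The mean of *RPS7A*, a ribosomal protein gene, was 8.91 in WT/pMAG, 9.31 in Δapn1, 9.11 in Δapn1/pMAG, 9.23 in Δapn1/pAPN1 and 9.04 in Δapn1/pMAG/pAPN1, against 9.27 in wild type, a narrower range than that of *CHO1*.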

How the data were processed

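RNA from 18 cultures, 3 of each of 6 strains, was extracted with hot phenol, labelled and hybridized, and the authors processed the scanned images with RMA (version not given in the sources used here). The deposited table holds log2 signals per probe set, normalized across arrays by the authors. RMA pulls the arrays' distributions together, so a change shared by most genes would not be seen. The descriptions of replicates 2 and 3 of Δapn1 number the gene otherwise, so their source labels were used. All value columns were used.

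Control probe sets (60), those with several gene names (328) and those without one (2443) were left out. In R 4.3.3, limma 3.58.1 (lmFit, eBayes) fitted a mean for each strain over the 18 arrays, with 12 residual degrees of freedom and no filter on low signals. p-values were two-sided and adjusted over 6504 probe sets by the Benjamini-Hochberg method at 0.05. The thresholds of the methods (ANOVA p under 0.05, 1.5-fold) were applied beside it. The fit was tested on simulated data. With 3 arrays per strain, their number limits the precision.

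Replicate numbers were checked for pairing with wild type. Deviations from the strain means correlated at 0.372, 0.331 and 0.369 for Δapn1, and were not all above 0.1 for any other strain. Replicate 1 of both Δapn1 and wild type lay in the low structural RNA set and replicates 2 and 3 in the high set, so a pairing by number and the array set cannot be told apart. Alternatives were the methods' variance, fits of only the groups compared, a block on replicate number, a second quantile normalization, median centring, dropping the lowest 0.25 of probe sets by mean signal, array weights, trend and robust eBayes, all probe sets other than controls, the structural RNA array set as a block, and leaving out each array. Chosen after seeing the data were the replicate block in fits of only the groups compared, either array set alone, the 4 null strains against both with native *APN1*, the pMAG differences singly, and the difference between array sets, with each array left out for *INO1*. The members and lists were chosen with earlier results of these data known, and a further gene of the set is not reported here. Named beside the members were up to 4 genes per list with the smallest p among those past the methods' thresholds or called for the mean pMAG effect, and the 5 genes most correlated with *CHO1*. Mating type **a** and alpha genes and the strain and plasmid genes *APN1*, *MAG1*, *HIS3*, *LEU2* and *URA3* served as markers.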

Additional observations from a re-analysis of the deposited data

How the results depend on the processing

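In WT/pMAG the count of genes past the methods' thresholds was 1, and 2 with array weights, 2 on low structural RNA arrays only and 4 on high ones. In Δapn1 it was 1, and 0 with array weights, 3 on low and 0 on high arrays. In Δapn1/pMAG it was 1, and 0 with only the groups compared and with the replicate block in that fit. With quantile normalization and with the array set as a block it was also 0. For Δapn1/pAPN1 it was 1, and 2 with the replicate block (*OPI3* added), 2 with the array set as a block and 3 on low arrays. For Δapn1/pMAG/pAPN1 it was 1, and 2 with array weights and 0 with the array set as a block. On low arrays, with 1 wild type array, *CHO1* was at −0.17 in Δapn1/pMAG and −0.32 in Δapn1/pMAG/pAPN1, under 1.5-fold. Larger differences in these strains included 1.19 and 1.18 for *PSD1*, 1.33 and 1.29 for *INO1*, and 0.64 for *OPI3* in Δapn1/pMAG. The count called for the mean pMAG effect was 1, and 2 with array weights (*CHO2* added) and 0 on low arrays. For the F test it was 0, and 1 (*CHO1*) with array weights and with the array set as a block. The count of gene and strain pairs at an adjusted p under 0.05 was 0, and 1 (*CHO1* in WT/pMAG) without the lowest 0.25 of probe sets by mean signal, with array weights and with the array set as a block. The replicate block moved no other count.

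Leaving out each array gave 1 to 4 genes in WT/pMAG (2 without its replicate 2, 4 without replicate 1 of wild type), 0 to 1 in Δapn1 (0 without replicate 1 of wild type), and 1 to 3 in Δapn1/pMAG (3 without replicate 3 of wild type, 2 without its replicate 2 or without replicate 1 of wild type). It gave 1 to 2 in Δapn1/pAPN1 (2 without replicate 1 of WT/pMAG or 3 of wild type). In Δapn1/pMAG/pAPN1 it gave 1 to 2 (2 without replicate 1 of wild type), and for the mean pMAG effect 1 to 1. For the F test it gave 0 to 1 (1 without replicate 1 of wild type). For the adjusted pairs it gave 0 to 1 (1 without replicate 3 of WT/pMAG or 1 of wild type). A count of 1 did not always stand for the same gene. Without replicate 1 of wild type the call in Δapn1/pAPN1 was *INO2* (0.80), not *PSD1*. In Δapn1/pMAG the call was *PSD1*, not *CHO1*, without replicate 2 of wild type (0.72) or replicate 3 of Δapn1/pMAG (0.71). The adjusted p of *CHO1* was 0.0212 to 0.656 for WT/pMAG and 9.44e-04 to 0.0816 for the mean pMAG effect. Alternative values were labelled for *CHO1* in the strains with pMAG, *CHO2* in WT/pMAG, *PSD1* in Δapn1 and Δapn1/pAPN1, and the mean pMAG effect on *CHO1* and *CHO2*. Of these values, 221 kept direction and call, 14 lost the call, 5 gained one and 0 changed sign. Outside these, *PSD1* in WT/pMAG and *INO1* in Δapn1 changed sign between the array sets, as given above. The low set holds 1 array each of WT/pMAG, Δapn1 and wild type, assumed to vary like the rest. Other probe sets of a gene could not be tried, since each has 1. The causes were not tested.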
